A study of Rattus norvegicus with 138 samples.

Results

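Rats carrying tantalum (Ta) pellets were the surgical controls of a study of serum miRNAs after implantation of military-relevant metals, and the course of their serum miRNAs over 12 months was described on its own here. All libraries labelled as serum of Ta rats were taken, 15 of the 138 libraries in the series: 4 at 1 month, 4 at 3 months, 3 at 6 months and 4 at 12 months after surgery. The animals were male Sprague-Dawley rats aged 3 months at implantation, with no genetic modification named in the labels. They carried 2 pellets per limb, 4 per rat, each 1 mm across and 2 mm long, in the gastrocnemius muscle of the calf. Tantalum was used because it is regarded as inert in muscle, so the rats of each month share the surgery and the metal, and no unoperated rats were analysed here. The design gives 8 rats per group bled at every time point, whereas each month holds 3 or 4 libraries and the labels do not say which rats gave them or whether the same rats recur. Month after surgery and age of the rat advance together and cannot be told apart, nor can a processing run, since the labels give none. p-values measure only the spread between these samples.

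miRNAs are short RNAs that pair with messenger RNAs, mainly through bases 2 to 8 of the miRNA (the seed), and lower the output of their targets. Cells release them into blood in vesicles, lipoproteins and protein complexes, and broken blood cells spill them, so serum holds a mixture from liver, blood cells, vessel walls, muscle and other organs. Small RNA sequencing counts the reads of each mature miRNA. A level is given here as the percentage of all miRNA counts in a library, so that when 1 abundant miRNA takes more of a library the shares of all others are smaller.

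The mature sequences of the miRNAs on which the results turn are shown with the seed in capitals, because several of them share it. They come from RefSeq on GRCr8, and 434 of the 471 miRNAs in the count table matched an entry. The most abundant of the let-7 guide strands carry the same seed and differ in the rest by few bases (G12A from let-7a-5p to let-7f-5p, A19G to let-7c-5p, G12U and U18C to let-7g-5p, with positions counted from 1 at the 5′ end of let-7a-5p):
let-7a-5p: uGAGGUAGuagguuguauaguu
let-7f-5p: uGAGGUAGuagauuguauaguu
let-7c-5p: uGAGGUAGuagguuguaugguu
let-7g-5p: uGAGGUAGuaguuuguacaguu
The pair of HOX cluster miRNAs and miR-100-5p look alike at the start, but miR-10b-5p begins 2 bases later than miR-10a-5p in RefSeq and so has another seed, and differs from it within their overlap by U12A (position in miR-10a-5p):
miR-10a-5p: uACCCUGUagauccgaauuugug
miR-10b-5p: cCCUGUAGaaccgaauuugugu
miR-100-5p: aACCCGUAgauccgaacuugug
Of the remaining ones, miR-30e-5p carries the seed shared by the miR-30 family, to which miR-30d-5p and miR-30c-5p also belong, and the seed of miR-125b-5p is also that of miR-125a-5p and miR-351-5p:
miR-191a-5p: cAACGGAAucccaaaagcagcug
miR-122-5p: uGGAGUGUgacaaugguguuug
miR-423-5p: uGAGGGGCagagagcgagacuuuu
miR-140-3p: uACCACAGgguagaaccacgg
miR-30e-5p: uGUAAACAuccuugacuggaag
miR-223-3p: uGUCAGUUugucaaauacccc
miR-183-5p: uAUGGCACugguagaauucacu
miR-125b-5p: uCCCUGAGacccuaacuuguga

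Library totals ran from 176194 to 2195682 miRNA counts in 14 libraries, and the remaining one, replicate 3 at 3 months, held 1645. That library stood apart: it detected 36 miRNAs against 80 to 230 in the others, and its leading miRNAs were miR-451-5p of red cells (22.7%, 95% Wilson interval 20.8 to 24.8%), miR-26a-5p (21.5%), miR-16-5p and miR-145-3p (14.7% each) and miR-199a-3p (5.59%). The list of red-cell miRNAs made up 37.8% of its counts and 3.65 to 4.34% of the other 3-month libraries. Results are given without it unless stated (n = 4, 3, 3 and 4 libraries at 1, 3, 6 and 12 months), and the calls with it are given at the end. In the 14 libraries 335 miRNAs were detected at least once and 66 in every library. A count of 0 allows a share of up to 0.0017% in the shallowest of the 14 and up to 0.182% in the library of 1645 counts. Intervals and floors cover counting error only.

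At 3 months the leading miRNA of a library held the lowest share. No library measure passed its test, and with these group sizes none could. The most abundant miRNA took 14.3% ± 1.06 of a library at 3 months (SD, n = 3; range 13.1 to 15.2%), 27.1% ± 11.54 at 1 month (n = 4), 30.5% ± 11.6 at 6 months (n = 3) and 20.7% ± 3.17 at 12 months (n = 4), and the 3-month range lay below those of the other 3 months. The effective number of miRNAs, which is the number of equally abundant miRNAs with the same Shannon entropy, averaged 28.3 at 3 months against 18.6, 19.3 and 23.7 at 1, 6 and 12 months. Thinned to 176194 counts, libraries held on average 178, 137, 190 and 163 miRNAs at 1, 3, 6 and 12 months, with ranges that overlapped. The log2 ratio of miR-451-5p (red cells) to miR-23a-3p, an index of red-cell lysis, was 2.37, 3.09 and 0.87 at 3 months, above all 1-month libraries (-3.84 to 0.34) and all 12-month libraries (-2.77 to -0.28), and overlapped with 6 months (-2.25 to 1.43). Both parts of the ratio moved from 1 to 3 months, though neither passed. The log2 difference was 1.83 for miR-451-5p and -1.72 for miR-23a-3p (edgeR with RLE size factors, adjusted p = 0.202 and 0.117). Of the 9 red-cell miRNAs tested, 6 were above 0 with the TMM scaling of the main test (median log2 0.24). With RLE size factors 5 of the 9 were above 0 (median log2 0.009). The median over all miRNAs tested was -0.40 with either scaling. None of 30 exact two-sided permutation tests on these measures (5 measures, 6 pairs of months) passed adjustment, the lowest adjusted p being 0.429. The smallest p these groups allow is 0.0286 for 4 against 4 libraries, 0.0571 for 3 against 4 and 0.1 for 3 against 3. Even if all 30 tests had reached these, none would have passed adjustment, so the tests cannot tell whether the measures differed. With the library of 1645 counts the mean top share at 3 months was 16.4% ± 4.32 (n = 4) and its range overlapped with the other months.

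**Figure D1:**
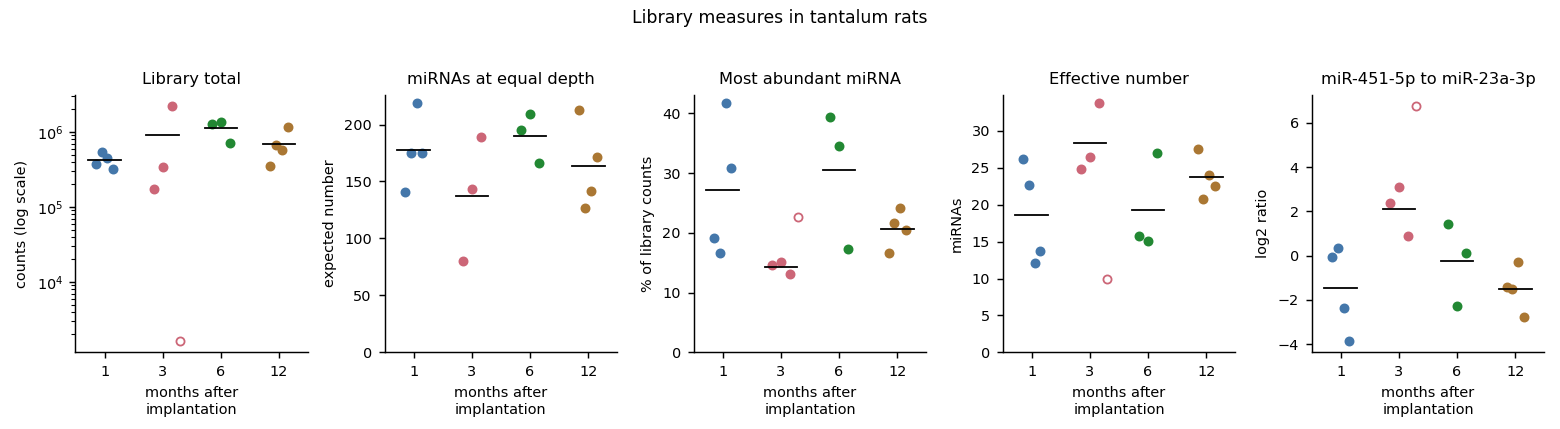
Library measures by month after implantation, from left to right the total (counts, log axis), the number of miRNAs at equal depth, the share of the most abundant miRNA (%), the effective number of miRNAs and the log2 ratio of miR-451-5p to miR-23a-3p. Points are libraries, bars are means over libraries of 20000 counts or more, and the open circle is the library of 1645 counts. The 3 filled points at 3 months lie lowest for the share of the most abundant miRNA (13.1 to 15.2%) and above all 1-month and 12-month points for the ratio.

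The miRNA with the highest mean share differed between months, though single libraries of a month often had different leaders. By mean share miR-191a-5p led at 1 month (21.7%) and 6 months (30.5%), let-7f-5p at 3 months (11.2%) and miR-122-5p at 12 months (15.6%). In single libraries miR-191a-5p led in 2 of 4 at 1 month, 1 of 3 at 3 months and 3 of 3 at 6 months. The other 1-month libraries were led by miR-192-5p and miR-10a-5p, and the other 3-month libraries by let-7a-5p and miR-122-5p, while let-7f-5p led none. At 12 months miR-10a-5p and miR-122-5p led 2 libraries each. Without 1-month replicate 3 miR-10a-5p had the highest mean of that month (15.42%, against 15.02% for miR-191a-5p). At 1 month the 5 leading miRNAs, miR-191a-5p, miR-10a-5p, miR-10b-5p, miR-192-5p and miR-24-3p, held 61.4% of counts. At 3 months the leading 5 were let-7f-5p, let-7a-5p, miR-191a-5p, let-7c-5p and miR-122-5p, with 42.8%. At 6 months they were miR-191a-5p, miR-10a-5p, miR-10b-5p, miR-192-5p and miR-122-5p, with 60.5%, and at 12 months miR-122-5p, miR-10a-5p, miR-99a-5p, miR-10b-5p and miR-192-5p, with 48.1%. Between months 14 miRNAs entered the 10 most abundant at least once, and 5 were there every month: miR-10a-5p, miR-122-5p, miR-143-3p, miR-192-5p and miR-24-3p. The 10 most abundant together held 75.4, 64.4, 74.3 and 67.4% of counts at 1, 3, 6 and 12 months.

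Of all miRNAs named here miR-191a-5p, a broadly expressed miRNA common in blood, had the highest mean share over the 14 libraries (15.3%), and it fell at 12 months. Its share was 19.2, 13.9, 41.7 and 12.0% in the 4 libraries at 1 month, 7.50, 5.00 and 13.1% at 3 months, 39.5, 34.6 and 17.3% at 6 months and 3.76, 3.73, 1.84 and 1.56% at 12 months. By raw share every 12-month library lay below every library of the other months. On the TMM-scaled values that the test uses, the 12-month libraries lay below those of 1 and 6 months but overlapped with 3 months (12 against 3 months, log2 -0.94, adjusted p = 0.558). Such separation was not rare: of 199 miRNAs tested 13 lay below all 1-month libraries and 26 below all 6-month ones. Its rank by mean share went from the first at 1 and 6 months to 13 at 12 months. Across all 199 miRNAs tested between months, edgeR's quasi-likelihood test called 3 at 12 months against 1 month (1.51%) and 3 at 12 months against 6 months (1.51%), all lower at 12 months. The fall of miR-191a-5p was log2 -3.17 ± 0.67 (SE) from 1 month (adjusted p = 0.0143) and -3.62 ± 0.71 from 6 months (adjusted p = 0.00568). The first call ended without 1-month replicate 3 or 12-month replicate 4 (log2 -3.29 to -2.51, adjusted p = 0.0501 to 0.0590), and the second without 6-month replicate 2 (log2 -3.32, adjusted p = 0.0548). Its neighbour in the genome by RefSeq on GRCr8, miR-425-5p, had a log2 difference of -0.32 at 12 months against 1 month (adjusted p = 0.979). With RLE size factors it was -0.43 ± 1.75, a spread too wide to tell whether miR-425-5p fell as well.

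Also lower at 12 months was miR-423-5p, a miRNA found in plasma and in many tissues. It held 0.927, 1.93, 0.563 and 0.635% at 1 month, 0.511, 0.433 and 0.819% at 3 months, 1.15, 2.50 and 0.980% at 6 months, and 0.277, 0.0571, 0.142 and 0.250% at 12 months. By raw share the 12-month libraries were again below all others, whereas on TMM-scaled values they overlapped with 3 months (log2 -1.06, adjusted p = 0.410). The differences were log2 -2.53 ± 0.60 from 1 month (adjusted p = 0.0283) and -3.32 ± 0.64 from 6 months (adjusted p = 0.00568). The call from 1 month ended without 1-month replicate 2 or 3 or 12-month replicate 2 or 4 (log2 -2.82 to -2.37, adjusted p = 0.0501 to 0.0684), and the call from 6 months ended without 6-month replicate 2 (log2 -2.48, adjusted p = 0.103).

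The cartilage miRNA miR-140-3p, whose gene lies in Wwp2 and is best known for its part in skeletal growth, was the third to fall from 1 to 12 months. Its share was 0.725, 1.55, 0.480 and 0.293% at 1 month, 0.200, 0.312 and 0.614% at 3 months, 0.364, 0.289 and 0.491% at 6 months and 0.0949, 0.0309, 0.0971 and 0.137% at 12 months. All 12-month shares were the lowest of the course, but on TMM-scaled values they overlapped with 3 months (log2 -1.50, adjusted p = 0.223). The fall from 1 month was log2 -3.10 ± 0.58 (adjusted p = 0.00645), and this call was kept when each library was left out in turn and in the other alternatives (adjusted p up to 0.0451). Of the 4 cartilage miRNAs listed, 2 were tested. The partner strand miR-140-5p had no count in any of the 14 libraries, and miR-455-3p was detected in 7 of them.

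From 6 to 12 months miR-151-5p also fell, a miRNA encoded within the focal adhesion kinase gene. It held 0.333, 0.215, 0.1002 and 0.0663% at 1 month, 0.388, 0.267 and 0.2996% at 3 months, 0.358, 0.189 and 0.272% at 6 months and 0.0365, 0.0314, 0.0861 and 0.0781% at 12 months. The 12-month range of shares lay below those at 3 and 6 months and overlapped with 1 month, while on TMM-scaled values it was below all 3. The difference from 6 months was log2 -2.38 ± 0.58 (adjusted p = 0.0350). The call ended with RLE size factors (adjusted p = 0.0593), with no filter on low counts (0.158), with all 35 groups of the series fitted (0.0575), with the library of 1645 counts (0.0745), and without any of 1-month replicate 3, 3-month replicate 2, 6-month replicates 1, 2 and 3 or 12-month replicates 1, 2 and 3 (log2 -2.77 to -1.98, adjusted p = 0.0535 to 0.259).

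The number of calls itself depended on single libraries. From 1 to 12 months it was 1 without 1-month replicate 3 or 12-month replicate 4, 5 without 12-month replicate 3 and 9 without 3-month replicate 2. From 6 to 12 months it was 7 without 3-month replicate 1 and 0 without 6-month replicate 2.

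The liver miRNA miR-122-5p, which makes up most of the miRNA of hepatocytes, had the highest mean share at 12 months (15.6%), closely followed by miR-10a-5p (15.24%). Without 12-month replicate 2 or 3 the order turned (13.58 against 15.67%, and 12.74 against 16.98%). It held 3.54, 0.696, 0.654 and 3.05% at 1 month, 3.11, 15.2 and 1.16% at 3 months, 3.29, 3.75 and 7.48% at 6 months and 8.57, 21.7, 24.2 and 8.00% at 12 months. Every 12-month library was above every 1-month and 6-month library, while 3-month replicate 2 reached into the 12-month range. On TMM-scaled values 11 of 199 miRNAs tested lay above 1 month in this way and 17 above 6 months. The difference between 12 and 1 months, log2 2.65 ± 0.84, did not pass (adjusted p = 0.107). The liver list summed to a median of 10.3, 7.70, 12.4 and 20.2% at 1, 3, 6 and 12 months. In any pair 0 of its 6 tested members passed, where 0 to 2.51% of all 199 miRNAs tested did. Also on it, miR-192-5p, shared by liver, gut and kidney, ran from 2.50 to 16.6% at 1 month, 2.40 to 5.51% at 3 months, 4.67 to 7.94% at 6 months and 3.51 to 6.69% at 12 months.

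Both miR-10 strands, transcribed from within the homeobox (HOX) gene clusters that set body position, had their lowest means at 3 months. miR-10a-5p held 4.26, 11.1, 15.7 and 30.9% at 1 month, 1.65, 2.49 and 10.3% at 3 months, 10.9, 11.6 and 11.2% at 6 months and 16.6, 13.95, 10.04 and 20.4% at 12 months. For miR-10b-5p the ranges were 6.39 to 13.6%, 0.696 to 5.81%, 5.38 to 8.49% and 3.42 to 9.21%. At 3 months 2 of 3 libraries were below all others for both miRNAs. The differences from 1 to 3 months were log2 -2.84 (adjusted p = 0.0612) and -2.78 (adjusted p = 0.0512) and did not pass with TMM scaling. With RLE size factors both did (adjusted p = 0.0451 and 0.0339). The vessel wall and smooth muscle miRNA miR-143-3p and the widely expressed miR-24-3p kept within 1.53 to 6.69% and 1.41 to 9.49% of counts over the 14 libraries, with no call in any pair.

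**Figure D2:**
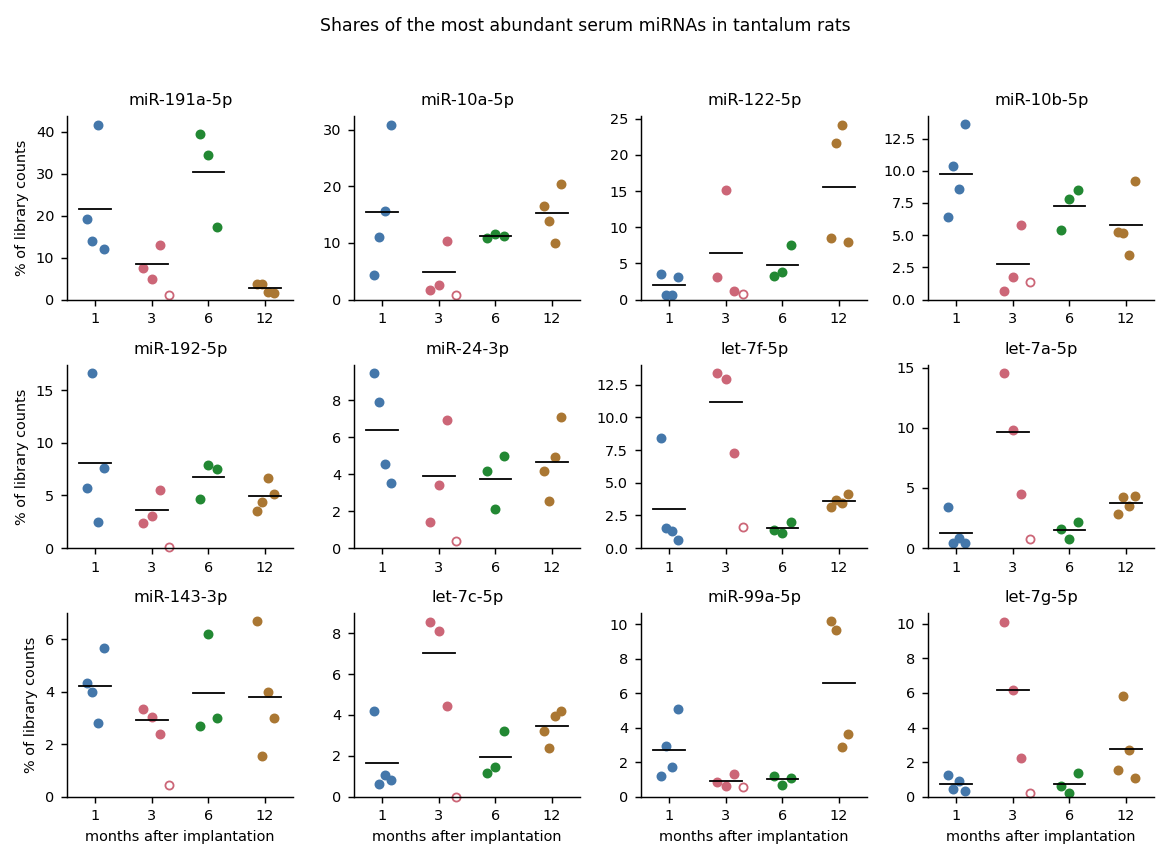
Share of library counts (%) of the 11 most abundant miRNAs and of let-7g-5p by month after implantation. Points are libraries, bars are means over libraries of 20000 counts or more, and the open circle is the library of 1645 counts. For miR-191a-5p all 12-month points lie between 1.56 and 3.76%, below every other filled point by share (on TMM-scaled values they overlapped with 3 months), while let-7f-5p and let-7a-5p are highest at 3 months.

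At 3 months the let-7 family, conserved miRNAs of differentiated cells that restrain growth genes and are plentiful in blood, were the most abundant group. The 9 guide strands with the let-7 seed summed to 21.3 to 52.7% of counts at 3 months (median 40.8%), against 2.56 to 19.7% at 1 month, 4.54 to 10.95% at 6 months and 13.9 to 17.5% at 12 months (medians 4.43, 5.83 and 16.0%). The 3-month libraries were above all others, and the 12-month libraries above all 6-month ones and all 1-month ones but replicate 1. From 1 to 3 months edgeR called 5 of the 199 miRNAs (2.51%), 4 higher at 3 months (2.01%) and 1 lower (0.503%), and 1 of the 9 let-7 strands was among the 4. The 9 had a median log2 difference of 1.57 (8 above 0), beside -0.40 over all miRNAs tested. With RLE size factors it was 1.60 (8 above 0).

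The let-7 strand that passed with TMM scaling was let-7a-5p. It held 3.41, 0.388, 0.867 and 0.407% at 1 month, 14.6, 9.78 and 4.54% at 3 months, 1.58, 0.790 and 2.16% at 6 months and 2.84, 4.25, 3.51 and 4.31% at 12 months. By share the 3-month libraries exceeded every other, and on TMM-scaled values they overlapped with 12 months. On TMM-scaled values 12 of the 199 miRNAs tested had all 3-month libraries above all 1-month ones. The rise was log2 2.41 ± 0.62 (adjusted p = 0.0454). That call ended without any of 1-month replicates 2, 3 and 4, 3-month replicates 1 and 2 or 6-month replicates 1 and 2 (log2 2.05 to 2.48, adjusted p = 0.0519 to 0.188) with the library of 1645 counts (0.0735) and with only the 2 months fitted (0.118).

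Its nearest relatives did not pass with TMM scaling, though 2 did with RLE size factors. The most abundant at 3 months, let-7f-5p, held 8.46, 1.52, 1.34 and 0.603% at 1 month, 13.4, 12.9 and 7.27% at 3 months, 1.40, 1.15 and 2.00% at 6 months and 3.11, 3.70, 3.42 and 4.12% at 12 months (3 against 1 month, log2 1.54, adjusted p = 0.164). The 1-month library at 8.46% was above 3-month replicate 4. For let-7g-5p the difference was log2 2.37 (adjusted p = 0.0512), for let-7d-5p 1.76 (0.0512), and for let-7c-5p 1.57 (0.136). With RLE size factors edgeR called let-7g-5p (log2 2.53, adjusted p = 0.0369) and let-7d-5p (1.92, 0.0373), but not let-7f-5p (0.141) or let-7c-5p (0.105).

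The count of 5 calls from 1 to 3 months was moved by most of the libraries. It was 1 without 1-month replicate 2 or 4, 3-month replicate 2 or 6-month replicate 2, and 2 without 1-month replicate 3, 3-month replicate 1 or 6-month replicate 1. It was 10 without 12-month replicate 1, 16 without 3-month replicate 4 and 18 without 1-month replicate 1. With RLE size factors it was 14, of which 8 were higher and 6 lower at 3 months.

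The miR-30 family, abundant in epithelia, kidney and heart and known for its repression of genes of fibrosis and autophagy, was lowest at 1 month. Its listed members summed to 0.287 to 0.690% of counts at 1 month, below all libraries at 3 months (2.03 to 5.13%), 6 months (0.878 to 1.63%) and 12 months (1.14 to 1.78%). Of 6 members tested 2 rose from 1 to 3 months, where 2.01% of all miRNAs tested did. All 6 had a log2 above 0 (median 1.60, beside -0.40 over all miRNAs tested, or 1.72 with RLE size factors). The strongest was miR-30e-5p, at 0.0278, 0.0902, 0.0235 and 0.0253% at 1 month, 1.74, 0.692 and 0.486% at 3 months, 0.146, 0.0606 and 0.154% at 6 months and 0.190, 0.185, 0.224 and 0.0585% at 12 months. Its 3-month values stood above all the rest. The rise was log2 3.78 ± 0.67 (adjusted p = 0.00347), and the call was kept in all 22 alternatives (adjusted p up to 0.0271).

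The other was miR-30d-5p, at 0.297, 0.124, 0.108 and 0.119% at 1 month, 1.27, 0.986 and 0.534% at 3 months, 0.482, 0.416 and 0.624% at 6 months and 0.345, 0.431, 0.679 and 0.592% at 12 months. Here all libraries from 3 months on lay above those of 1 month. The rise to 3 months was log2 1.85 ± 0.49 (adjusted p = 0.0463). It ended with the library of 1645 counts (adjusted p = 0.0508), with no filter on low counts (0.119), with only the 2 months fitted (0.118) and without any of 1-month replicates 2, 3 and 4, 3-month replicates 1 and 2 or 6-month replicates 1, 2 and 3 (log2 1.61 to 2.00, adjusted p = 0.0504 to 0.203). The neighbour of miR-30e in the genome, miR-30c-5p, had a log2 of 2.15 (adjusted p = 0.0558) with TMM scaling. It passed with RLE size factors (log2 2.43, adjusted p = 0.0373).

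The neutrophil and platelet miRNA miR-223-3p was the remaining one to rise. It held 0.0699, 0.0211, 0.0204 and 0.00126% at 1 month, 1.26, 0.474 and 0.186% at 3 months, 0.0605, 0.0273 and 0.0411% at 6 months and 0.0254, 0.137, 0.157 and 0.0234% at 12 months. By share all 3-month libraries were above all others, and on TMM-scaled values they overlapped with 12 months. The rise was log2 3.99 ± 0.95 (adjusted p = 0.0311), and the call ended without any of the same 7 libraries as that of let-7a-5p, 1-month replicates 2, 3 and 4, 3-month replicates 1 and 2 and 6-month replicates 1 and 2 (log2 3.19 to 4.21, adjusted p = 0.0514 to 0.188). It also ended with only the 2 months fitted (adjusted p = 0.0817). It was the 1 called member both of the platelet list (6 tested) and of the lymphocyte and myeloid list (7 tested), where 2.01% of all miRNAs tested rose. Beside it, the red-cell list summed to 0.390 to 2.87% at 1 month, 3.65 to 4.34% at 3 months, 1.63 to 3.74% at 6 months and 1.52 to 2.69% at 12 months. The list had 0 of 9 members called in any pair, where 0 to 2.51% of all miRNAs tested were called. Its part, and that of the red-cell ratio, in the 3-month results was not tested.

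In the other direction miR-183-5p, of the miR-183/96/182 cluster of sensory cells and epithelia, was not detected at 3 months. It held 0.0257, 0.143, 0.0171 and 0.0537% at 1 month, had no count in the 3 libraries at 3 months, and stood at 0.0165, 0.0264 and 0.0379% at 6 months. At 12 months it held 0.0273, 0.003, 0 and 0.00428%. On TMM-scaled values, not on these shares, the 3-month level was at least 956.5-fold below the 1-month mean (edgeR, adjusted p = 0.0193). The floor was 3 counts over the 3 libraries. This bound rests on the deepest library, and without 3-month replicate 4 it was at least 159.2-fold. Without 1-month replicate 2 it was at least 674.5-fold. The call ended with all 35 groups of the series fitted (adjusted p = 0.0689) and without 1-month replicate 2 or 4, 3-month replicate 2 or 6-month replicate 2 (adjusted p = 0.0503 to 0.0525). Of its cluster, miR-182 was detected in 2 of 3 libraries at 3 months and had an adjusted p of 0.584 from 1 month.

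**Figure D3:**
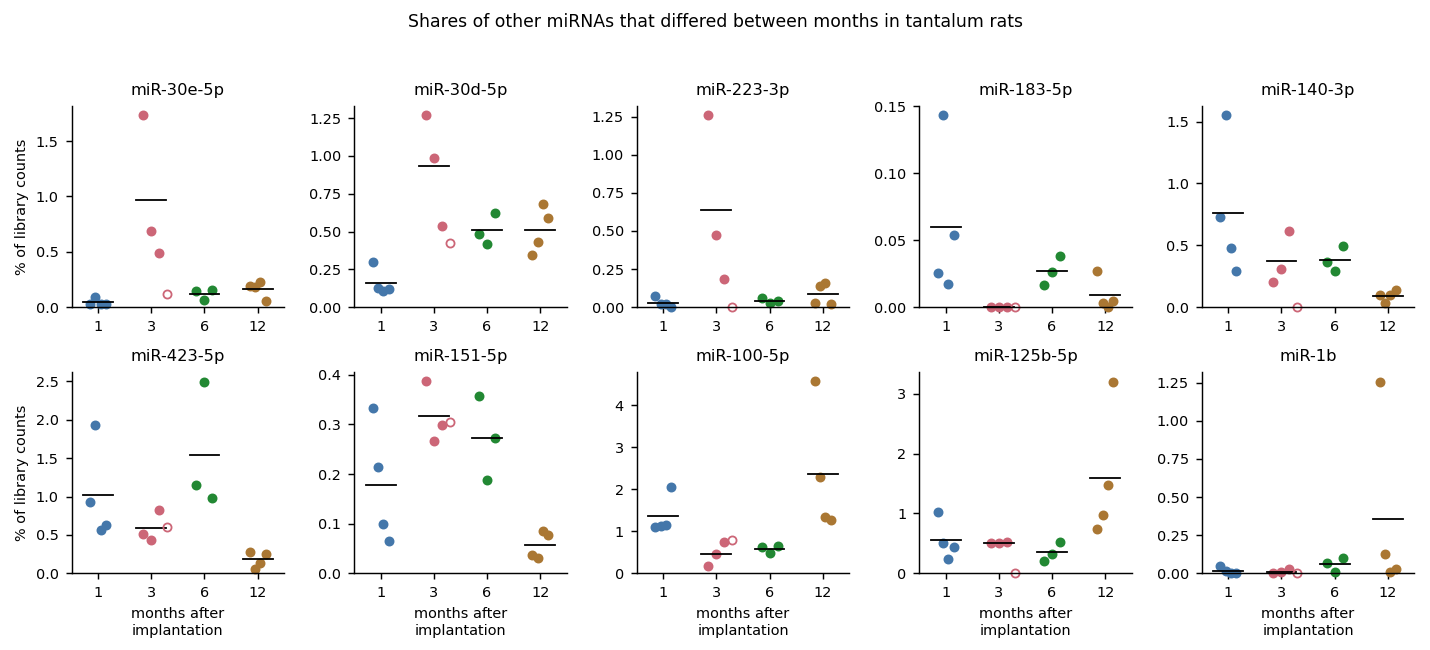
Share of library counts (%) by month after implantation for 10 further miRNAs that differed between months in a pairwise test or in the test over all months. Points are libraries, bars are means over libraries of 20000 counts or more, and the open circle is the library of 1645 counts, whose own floor is 0.182%. The 3-month points of miR-30e-5p (0.486 to 1.74%) lie above all others and the 12-month points of miR-140-3p (0.0309 to 0.137%) and miR-423-5p (0.0571 to 0.277%) below all others by share, though not below 3 months on TMM-scaled values.

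In a single test of any difference between the 4 months edgeR called 12 of 199 miRNAs (6.03%). Besides 7 already described (miR-30e-5p, miR-191a-5p, miR-423-5p, miR-140-3p, miR-223-3p, miR-183-5p and let-7a-5p) these were miR-99a-5p, miR-125b-5p, miR-100-5p, miR-1b and let-7g-5p. The count was 5 without 1-month replicate 2 or 3, 6-month replicate 1 or 12-month replicate 2, and 2 without 6-month replicate 2.

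Of these 12, 3 belong to the miR-99, miR-100 and miR-125 group, which is encoded beside let-7 genes in vertebrate genomes and includes regulators of mTOR and of blood cell development. The 5 listed members summed to 8.25 to 16.6% at 12 months, above all libraries at 3 months (2.85 to 4.39%) and 6 months (2.87 to 3.64%). The 1-month range (4.17 to 9.24%) overlapped with those of 3 and 12 months. From 6 to 12 months 4 of the 5 had a log2 above 0 with RLE size factors, and miR-99b-5p had -1.35 (edgeR, adjusted p = 0.717). miR-99a-5p held 1.19, 2.92, 1.69 and 5.11% at 1 month, 0.844, 0.627 and 1.32% at 3 months, 1.20, 0.687 and 1.10% at 6 months and 10.2, 9.69, 2.86 and 3.62% at 12 months. It differed between months (any month, adjusted p = 0.0199), and its largest pairwise difference, 12 against 3 months, was log2 3.55 ± 0.80 (adjusted p = 0.0545). miR-100-5p held 1.11, 1.13, 1.16 and 2.06% at 1 month, 0.179, 0.465 and 0.751% at 3 months, 0.622, 0.498 and 0.659% at 6 months and 4.57, 2.30, 1.33 and 1.27% at 12 months, with log2 2.95 ± 0.74 between 12 and 3 months (adjusted p = 0.0662, any month 0.0459). miR-125b-5p held 0.246 to 1.03% at 1 month, 0.504 to 0.532% at 3 months, 0.214 to 0.521% at 6 months and 0.734 to 3.197% at 12 months (any month, adjusted p = 0.0404). For each of the 3 the 12-month libraries were above all 3-month and 6-month ones. On TMM-scaled values 12 of the 199 miRNAs tested lay above 3 months in this way and 17 above 6 months. The 3 were picked by a test on the same values.

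A let-7 miRNA and its neighbour miR-100-5p or miR-99a-5p differed in sign from 1 to 3 months, and they were not tested against each other. On GRCr8 a let-7a gene lies beside the miR-100 gene and a let-7c gene beside the miR-99a gene. The log2 difference was 2.41 for let-7a-5p and -2.46 for miR-100-5p (adjusted p = 0.0512), and 1.57 for let-7c-5p and -2.64 for miR-99a-5p (adjusted p = 0.0512). With RLE size factors edgeR called both miR-100-5p (log2 -2.57, adjusted p = 0.0339) and miR-99a-5p (-2.61, 0.0451). let-7a-5p can come from several genes that its mature sequence does not tell apart. Opposite signs were not general among neighbours. With RLE size factors miR-30e-5p and miR-30c-5p had the same sign (log2 3.98 and 2.43), and miR-191a-5p and miR-425-5p opposite signs (-2.12 and 0.61).

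**Figure D4:**
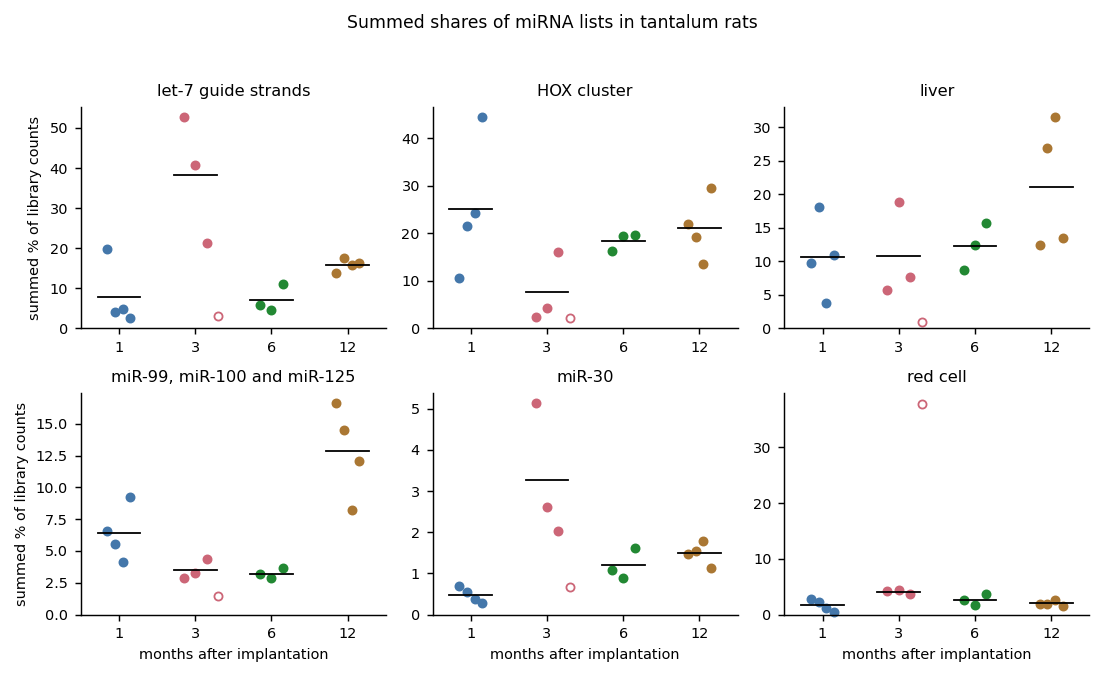
Summed share of library counts (%) of 6 miRNA lists by month after implantation. Points are libraries, bars are means over libraries of 20000 counts or more, and the open circle is the library of 1645 counts. let-7 is highest at 3 months (21.3 to 52.7%), the miR-99, miR-100 and miR-125 group at 12 months (8.25 to 16.6%), miR-30 is lowest at 1 month (0.287 to 0.690%), and the open circle stands at 37.8% for the red-cell list.

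The pellets lay in muscle, and miRNAs of striated muscle were few and uneven. The muscle list summed to 0.214 to 0.716% at 1 month, 0.138 to 0.444% at 3 months, 0.251 to 1.08% at 6 months and 0.246 to 2.68% at 12 months. Of its 9 members 4 were tested and 0 passed in any pair, where 0 to 2.51% of all miRNAs tested did. miR-1-3p, of heart and skeletal muscle, held 0.00263 to 0.0275% at 1 month and 1.55, 0.146, 0 and 0.0555% at 12 months. Its near-identical relative miR-1b followed, at 0.0041 to 0.0495% at 1 month, 0 to 0.0299% at 3 months, 0.0125 to 0.0999% at 6 months and 1.26, 0.129, 0.0125 and 0.0291% at 12 months (any month, adjusted p = 0.0459). Reads of the 2 cannot be assigned with certainty, and 12-month replicate 1 held most of both. miR-133a-3p was detected in 0 of 4, 0 of 3, 3 of 3 and 2 of 4 libraries at 1, 3, 6 and 12 months, and the muscle miRNA miR-206-3p in all 14 (0.0101 to 0.565%).

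For the remaining 3 pairs of months edgeR called 0 of 199 miRNAs. Between 1 and 6 months 12 had an unadjusted p under 0.05 and DESeq2 called 3. The smallest p were those of miR-30d-5p (log2 1.65 ± 0.49, adjusted p = 0.596) and miR-133a-3p (adjusted p = 0.639). Between 3 and 6 months 27 had an unadjusted p under 0.05 and DESeq2 called 16. miR-183-5p (adjusted p = 0.0799) and miR-191a-5p (log2 2.68 ± 0.76, adjusted p = 0.135) came nearest. Between 3 and 12 months 32 had an unadjusted p under 0.05 and DESeq2 called 15, with miR-99a-5p and miR-100-5p nearest, as given above. Without single libraries edgeR called 1 between 3 and 6 months (3-month replicate 4, or 12-month replicate 1 or 3) or 2 (1-month replicate 1). Between 3 and 12 months it called 1 (without 1-month replicate 1, 3-month replicate 4 or 6-month replicate 3), 2 (without 1-month replicate 4) or 5 (without 12-month replicate 3).

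Including the library of 1645 counts changed mainly the comparisons with 3 months. With all 15 libraries edgeR called 7 of 199 from 1 to 3 months (3.52%), 0 from 1 to 6, 3 from 1 to 12 (1.51%), 3 from 3 to 6 (1.51%), 8 from 3 to 12 (4.02%) and 2 from 6 to 12 months (1.01%), and 15 in the test of any month (7.54%). From 1 to 3 months 3 of the 5 earlier calls stayed (miR-30e-5p, miR-223-3p and miR-183-5p). The 4 that joined were miR-16-5p (log2 6.06, adjusted p = 0.0151, against -0.08 without that library), miR-451-5p (5.53, against 1.93), miR-199a-3p (4.83, against 0.60) and miR-26a-5p (3.63, against 0.60), all among the leading miRNAs of that library. Between 3 and 12 months the same 4 were called with miR-145-3p, miR-99a-5p, miR-151-5p and miR-183-5p, and between 3 and 6 months miR-145-3p, miR-199a-3p and miR-183-5p. miR-191a-5p, miR-423-5p and miR-140-3p remained called from 1 to 12 months (adjusted p = 0.0263, 0.0425 and 0.0263).

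The course in Ta rats was compared with the mean course of the 7 metals sampled at all 4 months (W, tungsten, then Co, Fe, Cu, Al and Pb by their chemical symbols, and DU, depleted uranium) by testing the difference between the 2 changes, in a fit of all libraries of 20000 counts or more. Of 326 miRNAs tested edgeR called 3 for the change from 6 to 12 months (0.92%) and 0 for the other 5 pairs of months, where 3 to 27 had an unadjusted p under 0.05 and DESeq2 called 16 to 66. miR-423-5p changed by log2 -3.36 ± 0.69 in Ta and -0.14 ± 0.24 in the metals, a difference of -3.23 ± 0.72 (adjusted p = 0.00555). miR-191a-5p changed by -3.70 ± 0.92 and -0.19 ± 0.31, a difference of -3.52 ± 0.95 (adjusted p = 0.0497). let-7g-5p changed by 1.94 ± 0.72 and -0.86 ± 0.24, a difference of 2.80 ± 0.78 (adjusted p = 0.0497).

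For these 3 miRNAs, which were picked by the test on the same values, the Ta means lay beyond those of most metals at both months. At 6 months the Ta mean was above those of 7 of 7 metals for miR-423-5p (1.54%, against 0.358% in W to 0.855% in Pb) and miR-191a-5p (30.5%, against 12.6% in Fe to 23.02% in Cu), and at 12 months below 7 of 7 (0.182%, against 0.184% in Co to 0.932% in Cu, and 2.72%, against 8.26% in W to 22.3% in DU). For let-7g-5p the Ta mean was below 7 of 7 metals at 6 months (0.734%, against 1.96% in Al to 6.76% in DU) and above 6 of 7 at 12 months (2.78%). Such placement was also seen without a call. The Ta mean of miR-140-3p was above 7 of 7 metals at 6 months and below 7 of 7 at 12 months. That of miR-99a-5p was below 7 of 7 and then above 7 of 7. At 6 months the Ta means of miR-30e-5p and miR-122-5p lay within the metal means. The calls rested on few libraries. Their number was 0 without 6-month replicate 2 or 12-month replicate 2 or 3, and 1 without 1-month replicate 1 or 2, 6-month replicate 1 or 12-month replicate 1 or 4. miR-423-5p was lost without 6-month replicate 2 or 12-month replicate 2 or 3 (adjusted p = 0.0639 to 0.330), miR-191a-5p without those 3 or the 5 others just named (0.0525 to 0.330), and let-7g-5p without any of the 14 Ta libraries but 3-month replicate 4 (0.0525 to 0.522). The call of let-7g-5p also ended with the libraries under 20000 counts (log2 2.76, adjusted p = 0.227) and with no filter on low counts (2.68, 0.0808), where miR-423-5p and miR-191a-5p kept theirs.

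**Figure D5:**
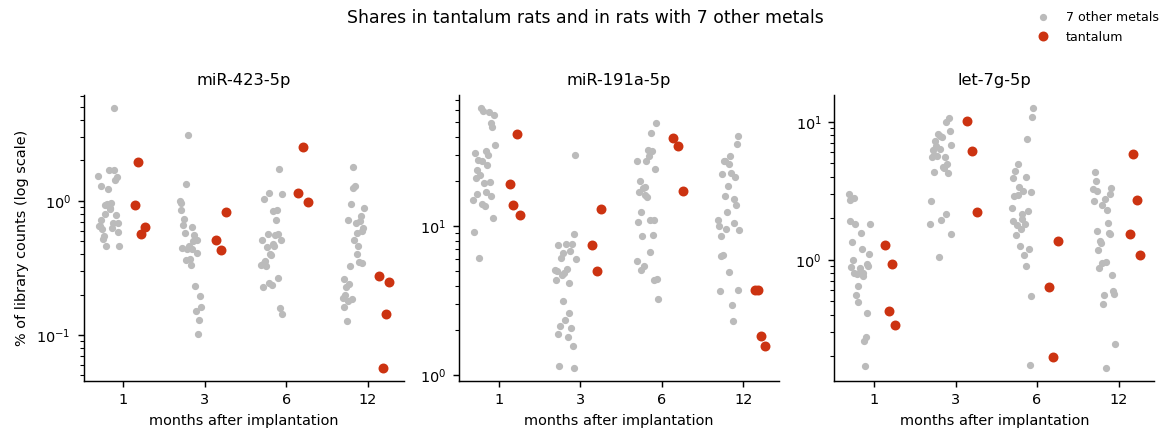
Share of library counts (%, log axis) of miR-423-5p, miR-191a-5p and let-7g-5p by month after implantation in tantalum rats (red) and in rats with 7 other metals (grey), libraries of 20000 counts or more. At 12 months the tantalum points of miR-191a-5p lie between 1.56 and 3.76%, where the 27 libraries of the other metals run from 2.30 to 40.1%.

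The changes to 3 months had no such difference from the metals that passed. miR-30e-5p averaged 0.0417% at 1 month and 0.971% at 3 months in Ta, where the metal means were 0.0612 to 0.0994% and 0.337 to 2.06%. let-7a-5p averaged 1.27 and 9.62% in Ta, and 0.904 to 2.66% and 6.33 to 12.6% in the metals. For miR-122-5p the Ta mean of 15.6% at 12 months lay within the metal means (7.26 to 21.3%).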

How the data were processed

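The authors deposited raw counts for 471 mature miRNAs of the rat in 138 libraries from serum, prepared with Norgen's small RNA kit and sequenced on a NextSeq 500, per the labels' protocols. Reads were assigned on Rnor 6.0, per the submitters' processing notes, and the aligner, counter and miRNA annotation were not given in the sources used here. Genome coordinates were not used.

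Month comparisons took the 14 Ta libraries of 20000 counts or more in one fit with edgeR 4.0.16 in R 4.3.3: filterByExpr (minimum count 10, minimum total 15), TMM, quasi-likelihood F test, Benjamini-Hochberg adjustment over the miRNAs tested, called at adjusted p under 0.05. The fit with all 15 libraries stands beside it. The comparison with 7 metals took the libraries of the series of 20000 counts or more in 35 groups; Ni has no 12-month group. Shares are percentages of raw counts. The log2 ratio used counts plus 0.5. Library measures were compared with exact permutation tests (scipy 1.17.1). The pipeline was checked on simulated data. Alternatives were RLE factors, no filter, DESeq2 1.42.0, a replicate block, other sets of groups, thinning to 176194 counts and leaving out each library.

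Named are the 10 miRNAs highest by mean share and the leading 5 of each month, up to 6 called miRNAs per direction and pair (the smallest p in each, or 2 where none is called), the 3 smallest p among calls in the comparison with the metals, and list members. miR-125b-5p and miR-1b (from the test over all months), miR-425-5p, miR-182 and the miRNAs leading the library of 1645 counts were named after their values were seen. The members and the 20 lists were chosen with earlier results of these data known. Replicate numbers were not used as pairs. Between months 4 of 18 same-numbered pairs of libraries correlated over 0.1, and 12 of 55 pairs with different numbers. This does not tell whether a number marks the same rat. Within a month no 2 Ta libraries agreed within sampling noise, and libraries of different months were not compared in this way.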

Additional observations from a re-analysis of the deposited data

Results flagged for a closer look

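In 11 of 86 groups of 4 libraries examined (the named miRNAs' shares and the library measures, with the library of 1645 counts included) 1 library lay far from the rest by Dixon's criterion, which chance alone does in about 1 in 20 groups. At 1 month replicate 1 was high for let-7f-5p (8.46%), let-7a-5p (3.411%), let-7c-5p (4.167%) and miR-30d-5p (0.2968%), replicate 2 for miR-30e-5p (0.09024%) and replicate 4 for miR-100-5p (2.063%). At 3 months replicate 2 was high for miR-122-5p (15.15%), replicate 4 for its library total (2195682 counts), and replicate 3 was low for miR-125b-5p (0%, in a library of 1645 counts). At 12 months replicate 1 was high for miR-183-5p (0.02734%) and miR-1b (1.256%). The 4 high values of 1-month replicate 1 come from 1 library and are not independent.

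An edgeR test of the difference itself called the change from 6 to 12 months in Ta against the 7 metals for 3 miRNAs. These were miR-423-5p (log2 -3.226, adjusted p = 0.00555), miR-191a-5p (-3.515, 0.0497) and let-7g-5p (2.8, 0.0497). Of 19 alternatives, 3 ended the call of miR-423-5p, 9 that of miR-191a-5p and 16 that of let-7g-5p.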

How the results depend on the processing

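Among the miRNAs named for a pair of months or for the comparison with the metals, none changed direction in that comparison in the alternatives run. Direction was not followed in this way for the other abundant miRNAs and list members. Some of these changed sign with the scaling, such as let-7i-5p (6 against 1 month), with log2 0.06 with TMM and -0.18 with RLE size factors. In the red-cell list (6 against 1 month) 8 of 9 were above 0 with TMM and 5 with RLE. In the miR-99, miR-100 and miR-125 list (6 against 3 months) 5 of 5 were above 0 with TMM and 3 with RLE. Among those named for the library of 1645 counts, including it turned the sign of miR-16-5p (3 against 1 month, 6.06 with it and -0.08 without; 12 against 3 months, -6.04 and 0.48) and of miR-145-3p (12 against 3 months, -5.20 and 0.02). miR-30e-5p (3 against 1 month) and miR-140-3p (12 against 1 month) were the 2 called between months that never lost their call. Single miRNAs kept their side of the threshold in 322 cases, lost it in 83 and gained it in 25; counts and library measures stayed within their tolerance in 272 cases and moved in 74. RLE size factors moved the median of all miRNAs by -0.22 (6 against 1 month) to 0.05 (12 against 6 months). Where a count moved, the cause was not tested.

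Counts that moved by over 1.5 times were these. With the library of 1645 counts, 3 (6 against 3 months) and 8 (12 against 3). With RLE factors, 14 (3 against 1). With no filter, 13 (3 against 1), 9 (12 against 1), 10 (6 against 3), 9 (12 against 3) and 26 (any month). With DESeq2, 30, 3, 15, 16, 15 and 10 (3 against 1, 6 against 1, 12 against 1, 6 against 3, 12 against 3, 12 against 6) and 32 (any month). With the replicate block, 11 (3 against 1) and 2 (12 against 3); 4 of 14 libraries correlated best with one of their own number. The block ended the calls of miR-30d-5p (3 against 1, adjusted p = 0.0925), miR-151-5p (12 against 6, 0.181) and, for Ta minus the metals (12 against 6), miR-191a-5p (log2 -3.42, 0.0566) and let-7g-5p (2.79, 0.0566). With all 35 groups fitted, 6 (any month). With only the 2 months fitted, 2 (3 against 1), 1 (12 against 3) and 7 (12 against 6). Thinned, 11 (3 against 1), 2 (12 against 3) and 5 (12 against 6). For Ta minus the metals: with low libraries 3 (3 against 1), 3 (6 against 3) and 4 (12 against 3); with no filter 3 (12 against 1) and 3 (12 against 3); with DESeq2 51, 24, 16, 34, 66 and 32 in the order above; with the replicate block 1 (12 against 6).

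Leaving out each library gave 1 to 18 calls (3 against 1), 0 to 0 (6 against 1), 1 to 9 (12 against 1), 0 to 2 (6 against 3), 0 to 5 (12 against 3), 0 to 7 (12 against 6), 2 to 17 (any month) and 0 to 3 for Ta minus the metals (12 against 6). Depth limits miRNAs under 0.0017% of a library, the share that a count of 0 allows in the shallowest. The number at equal depth has no value with the library of 1645 counts.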

Other observations

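Lists not described above had 0 members called in any pair of months, where 0 to 2.51% of all 199 miRNAs tested were called. The summed share of the X-linked miR-322 cluster, induced in muscle differentiation, had a median of 0.940% at 1 month and 0.460, 0.464 and 0.372% at 3, 6 and 12 months. The epithelial list ran from 0 to 0.214% over the 14 libraries and the Dlk1-Dio3 list, an imprinted cluster, from 0 to 0.0998%. The pancreas and endocrine list was at 0.0527 to 0.0669% at 1 month, below all libraries at 3 months (0.143 to 0.185%), 6 months (0.0706 to 0.118%) and 12 months (0.109 to 0.257%). Most of it was miR-375-3p, an islet and gut endocrine miRNA detected in 14 of 14 libraries, while miR-216a-5p and miR-216b-5p of the exocrine pancreas had no count in any. Of the neuronal list, miR-128-3p was detected in 14 of 14 libraries, miR-9a-5p in 4 and miR-124-3p in 2. Median summed shares at 1, 3, 6 and 12 months were 0.541, 0.287, 0.426 and 0.534% for miR-29, 0.280, 0.149, 0.0616 and 0.177% for the endothelial list, 4.44, 3.46, 3.204 and 3.89% for the fibroblast and smooth muscle list, 0.979, 2.27, 1.52 and 1.46% for miR-17-92 and its paralogues, and 7.83, 4.20, 5.67 and 6.58% for miR-23, miR-27 and miR-24.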
